A study of Mus musculus with 4 samples.

Results

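The genes described here are the 150 most abundant antisense transcripts in a coronal section of mouse brain that included the prefrontal cortex, where the infarct was made. They were chosen by ranking the 2031 genes that the annotation calls antisense, in the deposited table of NT + Stroke and NT + Sham, by their mean raw count over the 6 NT + Sham libraries. Because NT + Sham counts chose them, each comparison that contains NT + Sham is given below as a description, and HT + Stroke vs HT + Sham and HT + Stroke vs NT + Stroke are the comparisons that share no library with the choice. At the edge of the list, *A730081D07Rik* (mean count 39.0) and *1110002L01Rik* (38.67) were just inside, and *Gm42303* and *K230015D01Rik* (38.5 each) were just outside. Ranking by counts favours long genes. When FPKM (counts scaled by gene length and library size) was ranked instead, 102 of the 150 genes were also among the first 150, and when HT + Sham counts were ranked, 138 were.

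All mice were male C57BL/6J of 3 to 5 months in a 28-day protocol. Hypertension (HT) was induced by a 28-day infusion of angiotensin II, whose dose was 0.28 mg/kg/day, and normotensive (NT) mice were given saline as the vehicle. On day 7 each mouse underwent photothrombosis of the prefrontal cortex (a photosensitive dye activated by light, which clots the vessels under the beam) or sham surgery. Poly(A) RNA was sequenced in 24 libraries, with 6 in each of the 4 groups (NT or HT, Sham or Stroke). A library was taken to be a mouse, since every group has 6 numbered libraries in the tables, and if they are not separate mice the p-values measure technical spread only. A section holds many cell types, so fewer cells of a type and less RNA per cell cannot be told apart.

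Antisense transcripts are RNAs, mostly without a protein product, made from the DNA strand opposite to another gene. Some start beside the promoter of that gene and run away from it or across its first exon (head to head), some run into its far end (tail to tail), and others lie inside its introns. In brain they are known at loci of synaptic, developmental and imprinted genes, where some, such as *Kcnq1ot1*, silence genes nearby and others have no known role. How the libraries were stranded and how counting used the strand is not given in the sources used here. Reads of an antisense gene and of the gene on the other strand therefore cannot be told apart where the sequences are shared.

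Sequences of the loci that carry the results below are shown so that they can be read beside the values. The promoter windows run from 250 bases before to 50 bases after a RefSeq transcript start on GRCm38.p6, 5′ to 3′ on the strand of the antisense gene. *AI115009* (opposite *Ak5*) and *Kcnmb4os2* (opposite *Kcnmb4*) are shown as head-to-head starts, and *Lrp8os2* and *Gm3693* as starts within an intron of the opposite gene. Capitals mark matches on either strand to 5 motifs, none of which contains another. The TATA box was searched as TATAAA and the CCAAT box by its name. The GC box, bound by Sp factors, was searched as GGGCGG. The cAMP response element was searched as TGACGTCA. The site of AP-1 was searched as TGACTCA.
AI115009, chr3:152666663-152666962, plus strand: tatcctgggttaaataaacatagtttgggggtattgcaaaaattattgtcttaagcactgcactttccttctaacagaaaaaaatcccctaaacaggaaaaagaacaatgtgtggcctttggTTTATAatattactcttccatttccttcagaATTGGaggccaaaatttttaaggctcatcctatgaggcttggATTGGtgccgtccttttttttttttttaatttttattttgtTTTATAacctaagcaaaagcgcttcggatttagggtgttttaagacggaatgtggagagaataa
Kcnmb4os2, chr10:116472913-116473212, plus strand: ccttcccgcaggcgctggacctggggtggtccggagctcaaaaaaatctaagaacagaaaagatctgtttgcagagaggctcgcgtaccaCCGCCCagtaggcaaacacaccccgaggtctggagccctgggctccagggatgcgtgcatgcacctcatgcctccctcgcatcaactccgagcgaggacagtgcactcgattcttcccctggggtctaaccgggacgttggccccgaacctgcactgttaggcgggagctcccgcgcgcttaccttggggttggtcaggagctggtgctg
Lrp8os2, chr4:107822973-107823272, minus strand: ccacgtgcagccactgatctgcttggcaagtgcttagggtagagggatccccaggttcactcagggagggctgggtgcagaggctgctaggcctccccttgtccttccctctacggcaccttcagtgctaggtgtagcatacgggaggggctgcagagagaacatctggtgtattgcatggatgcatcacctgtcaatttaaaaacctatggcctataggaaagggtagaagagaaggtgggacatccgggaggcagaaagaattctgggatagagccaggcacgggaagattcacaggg
Gm3693, chr12:81228034-81228333, plus strand: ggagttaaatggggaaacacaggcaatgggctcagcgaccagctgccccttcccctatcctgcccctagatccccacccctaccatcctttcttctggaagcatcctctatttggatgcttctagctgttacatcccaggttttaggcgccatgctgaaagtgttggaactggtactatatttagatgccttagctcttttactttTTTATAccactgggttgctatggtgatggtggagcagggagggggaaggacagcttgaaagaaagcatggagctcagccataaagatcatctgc

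The *AI115009* window held 34.3% G and C with 4 CpG dinucleotides, and its matches were 2 reversed TATA boxes and 2 reversed CCAAT boxes. The *Kcnmb4os2* window held 61.7% G and C with 19 CpG and 1 GC box, and the *Lrp8os2* window 55.0% with 5 CpG and none of the motifs. In the *Gm3693* window, with 49.3% G and C, 1 reversed TATA box was found. RefSeq windows were matched by symbol for 82 of the 150 antisense genes (109 windows) and for 118 opposite-strand genes (163 windows). GGGCGG was present in 45.9% of the windows of the antisense genes, in 59.5% of those of the opposite-strand genes and in 35.7% of the 32851 windows of all genes. CCAAT was present in 29.4%, 39.9% and 37.4%, TATAAA in 8.26%, 4.91% and 13.6%, TGACGTCA in 0.917%, 2.45% and 1.79%, and TGACTCA in 0.917%, 4.91% and 5.2%, in the same order. Median G and C content was 60.7%, 61.7% and 52.7%, and the median number of CpG was 16, 20 and 7. The windows of these antisense genes were thus closer in base composition to those of the genes opposite than to the median of all genes. Where both starts lie close together, as in some head-to-head pairs, the windows can share bases, and they were not split by arrangement.

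The RNA of *C730002L08Rik*, the gene past the threshold in HT + Stroke vs HT + Sham, is shown by its first exon and its last 50 bases, from GENCODE mouse release 21 on GRCm38. That release gives this gene another span than the deposited one, so a transcript inside the deposited span was taken. The ends of *Lrp8os2*, *Dlx6os1* and *AI115009* are given as well, since the libraries were made from poly(A) RNA. Capitals mark the polyadenylation signals AATAAA or ATTAAA.
C730002L08Rik first exon, chr19:20552187-20552330, minus strand: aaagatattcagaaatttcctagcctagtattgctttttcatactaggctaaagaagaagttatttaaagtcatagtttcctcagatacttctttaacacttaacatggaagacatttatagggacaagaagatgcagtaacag
C730002L08Rik end, chr19:20534527-20534576, minus strand: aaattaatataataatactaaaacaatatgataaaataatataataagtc
Lrp8os2 end, chr4:107806033-107806082, minus strand: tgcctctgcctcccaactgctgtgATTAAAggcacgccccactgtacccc
Dlx6os1 end, chr6:6820189-6820238, minus strand: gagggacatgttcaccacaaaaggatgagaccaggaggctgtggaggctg
AI115009 end, chr3:152681383-152681432, plus strand: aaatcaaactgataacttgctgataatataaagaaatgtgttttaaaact

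Of these 4 ends, that of *Lrp8os2* held a match, to ATTAAA. At least 1 of these signals was present in the last 50 bases of 163 of the 360 annotated transcripts of the 150 genes (45.3%). The share was 42.4% of 4511 transcripts of antisense type and 50.2% of 58787 of protein-coding type in the same annotation. The 360 were taken by gene, whatever their transcript type. Counted by gene, at least 1 transcript had a signal in 71.3% of the 150, 49.3% of 3091 antisense and 77.9% of 21894 protein-coding genes. The share of these antisense ends with a signal lay between those of all antisense and of protein-coding transcripts.

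The 150 genes lay on 20 chromosomes, 1 of them on X, with 79 on the plus and 71 on the minus strand. For 116 of them the symbol is a provisional Rik or Gm name. *Trmt61b*, whose symbol is that of a protein-coding gene, was in the list because the tables give it the antisense biotype. Their median length in the tables was 2116.5 bases (390 to 93092, the longest being *Kcnq1ot1*), compared with 978 for the 2066 other antisense genes of the joined tables, which follows in part from the ranking by counts. A gene on the opposite strand was found for 149 of them. All were distinct but *Ttyh1*, which lay opposite 2, and 147 of the 149 pairings were with a protein-coding gene and 2 with a lincRNA.

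The most frequent arrangement was head to head, in 55 of the 150 (36.7%), compared with 21.9% of the other antisense genes. In 39 (26.0%, compared with 51.5%) the antisense gene lay within the span of the opposite gene, and 37 (24.7%, compared with 15.2%) were tail to tail. In 10 (6.67%, compared with 2.95%) the opposite gene lay within the antisense gene, 8 (5.33%, compared with 3.73%) were divergent without overlap and starting within 5000 bases, and *Gm14286* had no such neighbour. Of 149 genes whose annotated exons add up to the deposited length, 18 had a single exon, 114 shared exon bases with the opposite gene and 35 shared none, and 14 had all their exon bases inside an intron of it. The median share of exon bases that lay in an exon of the opposite gene was 9.71%.

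Their level was low and their spread between mice was wider than that of the genes opposite. The median over the 150 genes of the mean count was 72.1 in NT + Sham, 72.4 in NT + Stroke, 62.8 in HT + Sham and 67.3 in HT + Stroke, and the lowest count of a gene in any library was 7. The total count per library was 15922919 to 24865998, of which the 150 genes together took 0.0972% ± 0.00313 in NT + Sham, 0.0950% ± 0.00400 in NT + Stroke, 0.0968% ± 0.00366 in HT + Sham and 0.0935% ± 0.00274 in HT + Stroke (mean ± SD, n = 6 each). The median coefficient of variation within a group was 17.5% to 18.8% for the antisense genes and 9.68% to 14.3% for the opposite-strand genes. The smaller counts thus came with the wider spread.

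Per length, the median level was 2.04 FPKM in NT + Sham, and 50 of 149 antisense genes had a higher mean FPKM than the gene opposite. The median log2 ratio of the levels was -1.14. Antisense genes that contain the opposite gene were above it in 8 of 10 pairs, and tail-to-tail genes in 9 of 37 (median log2 ratio -2.55). The lowest ratio was that of *Gm14703* to *Syp* (1.60 and 337 FPKM), which encodes synaptophysin of synaptic vesicles, with a log2 ratio of -7.72. The highest was that of *Gm13601* to *Xirp2*, a gene of striated muscle, with 8.12 and 0.0268 FPKM. By FPKM the most abundant were *Gm17201* opposite *Ankrd52* (40.1 ± 6.84), *Gm13375* opposite *Arhgap21* and *Gm13205* opposite *Casz1*, a zinc-finger transcription factor (17.9 ± 4.21), and the least was *Kcnq1ot1* (0.169 ± 0.00489). The plot of both levels in each pair shows the spread in either direction around equal levels.

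**Figure D1:**
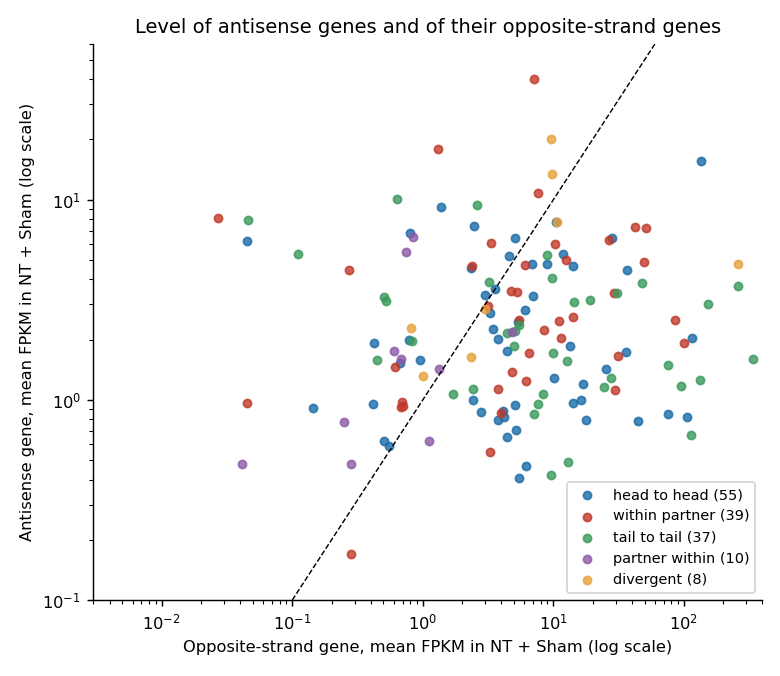
Mean FPKM in NT + Sham (n = 6) of each antisense gene (vertical axis, log scale) against that of the gene on the opposite strand (horizontal axis, log scale), 1 point per pair, coloured by the arrangement of the 2 genes, with a line at equal levels. Of 149 pairs, 50 lie above the line, among them 8 of the 10 in which the opposite gene lies within the antisense gene.

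The gene with the highest count was *Tug1*, a conserved nuclear and cytoplasmic long RNA that starts head to head with *Morc2a*, a chromatin regulator. It had 56.4, 64.4 and 67.4 CPM (counts scaled to library size, with sizes scaled by TMM; lowest, median and highest of 6 libraries) in NT + Sham, 57.5, 60.6 and 65.4 in NT + Stroke, 57.7, 60.1 and 70.3 in HT + Sham and 47.0, 59.2 and 66.3 in HT + Stroke. The 4 groups overlapped. The next was *4933431E20Rik*, tail to tail with *Eps8l3*, with a mean count of 1040 in NT + Sham and 7.96 FPKM, compared with 0.0459 FPKM for *Eps8l3*. Further down came *Gm2415* opposite the integrin gene *Itga9* (10.1 and 0.637 FPKM), *A830036E02Rik* opposite *Krt12* (4.75 and 6.86), *6330403L08Rik* opposite the growth factor gene *Pdgfa* (4.66 and 14.2) and *E130307A14Rik* opposite *Traf3ip2*, an adaptor of IL-17 signalling (3.13 and 0.522). The last of the first 10 were *Grin1os* opposite *Grin1*, the obligatory NMDA receptor subunit (7.26 and 51.1 FPKM), *Rab10os* opposite the small GTPase gene *Rab10* (3.41 and 30.8), *Gm37459* opposite *Pex5l*, a partner of HCN channels (5.31 and 8.96), and *Gm16536* opposite the beta-secretase gene *Bace1* (10.8 and 7.60). Both orders of abundance thus occurred among the first 10.

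In HT + Stroke vs HT + Sham the 10 had log2 fold changes from -0.28 (*A830036E02Rik*) to 0.26 (*Gm2415*), and none passed the test. Of 8 genes of imprinted loci that were listed, 1 was among the 150, *Kcnq1ot1*, with 14.2 to 15.7 CPM in HT + Stroke and 13.9 to 19.3 in HT + Sham. Of 26 at loci of homeobox and other developmental transcription factors there were 3, *Dlx6os1*, *Emx2os* and *Zeb2os*, and of 24 hosts of snoRNAs or microRNAs and growth-linked RNAs there were 0. The choice took the antisense biotype alone, so a listed gene of another biotype could not be found, and these counts say nothing of its level. *Emx2os* had 2.89, 3.78 and 4.69 CPM in HT + Sham and 3.37, 3.85 and 4.25 in HT + Stroke, and *Zeb2os* 1.51, 2.11 and 3.41 and then 1.59, 2.49 and 3.32. Both overlapped between the groups.

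After stroke in hypertensive mice, 1 of the 150 antisense genes was past the threshold. *C730002L08Rik* fell 1.62-fold in HT + Stroke compared with HT + Sham. By edgeR's quasi-likelihood test, with p-values adjusted for all 16741 genes after Benjamini and Hochberg, 108 genes (0.645%; 0.102% lower) were under 0.05, so that 1 of 150 (0.667%) was near the background for both directions. At an unadjusted p under 0.05 there were 14 of the 150 (9.33%; 5 higher and 9 lower), compared with 17.0% of all genes (10.5% higher and 6.50% lower). The median log2 fold change was -0.02 over the 150 and 0.00 over all genes. Of the 141 opposite-strand genes tested, 0 passed with edgeR and 27 (19.1%) had an unadjusted p under 0.05. DESeq2 called 9 of them, and 907 of 32562 genes in all.

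*C730002L08Rik* (ENSMUSG00000114469, chr19:20534527-20552330, minus strand, GRCm38) has 3 exons of 2917 bases in all. They lie entirely in an intron of *Aldh1a1*, which encodes an enzyme that makes retinoic acid from retinaldehyde. RefSeq gives *Aldh1a1* more than 1 start. The start of *C730002L08Rik* is 59747 bases downstream of the start at position 20492583 and 49638 bases upstream of the start at 20601968, so that it is within the gene only by the longer transcript. No promoter window was matched for it.

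The level of *C730002L08Rik* was 9.39, 11.6 and 14.7 CPM in HT + Sham (lowest, median and highest; mean 11.7 ± 2.24) and 6.07, 6.80 and 9.04 in HT + Stroke (7.15 ± 1.14). Every HT + Stroke library was below every HT + Sham library, as in 1.15% of all genes in either direction. The log2 fold change was -0.69 ± 0.14 (SE, n = 6 each; edgeR adjusted p = 0.0334). It was -0.78 to -0.64 when each library was left out in turn, and the adjusted p passed 0.05 without HT + Sham library 1 (0.0710), 3 (0.0980) or 4 (0.0927) or HT + Stroke library 2 (0.109), 3 (0.0514) or 4 (0.0769). The call thus rested on each of these libraries, while the size of the difference moved little.

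*Aldh1a1* had 26.1, 28.6 and 33.0 CPM in HT + Sham and 27.9, 31.1 and 42.7 in HT + Stroke. These groups overlapped, and its log2 fold change was 0.20 ± 0.11 (edgeR adjusted p = 0.343). In NT mice *C730002L08Rik* had 9.63, 14.1 and 16.8 CPM in NT + Sham and 5.10, 7.15 and 9.04 in NT + Stroke, and *Aldh1a1* had 27.8, 30.3 and 32.8 and then 34.0, 37.6 and 44.0. Neither NT pair of groups overlapped, and the 2 genes differed in opposite directions.

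The levels of markers of neighbouring regions varied between the sections. Summed over 7 striatal markers, the level was 185 to 854 CPM in HT + Sham and 630 to 2060 in HT + Stroke, and over 7 olfactory bulb markers it was 191 to 820 and 68.4 to 512; 0 of 7 passed the test in either list. HT + Sham library 6 stood apart, with the lowest striatal score (mean of log2(CPM + 1), 3.81) and the highest olfactory bulb score (6.39). The HT + Stroke libraries were also uneven, with olfactory bulb scores of 2.93, 2.87 and 3.54 in libraries 1, 2 and 6 and 4.76 to 5.66 in the others. With both scores as covariates the log2 fold change of *C730002L08Rik* was -0.70 ± 0.21 and edgeR's adjusted p was 0.310, and 0 of all genes passed. Without HT + Sham library 6 it was -0.75 (adjusted p = 0.0353).

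Of 5 oligodendrocyte markers 4 were higher by the test (3175 to 4135 CPM summed in HT + Sham, 4403 to 4930 in HT + Stroke). Of 7 microglia and macrophage markers 0 passed (183 to 243 and 206 to 506), and likewise 0 of 5 astrocyte markers (674 to 1165 and 718 to 2089), 0 of 8 neuronal markers (7589 to 9048 and 6125 to 8152) and 0 of 6 cortical markers (285 to 428 and 279 to 400). Neuronal and cortical markers were present in every library, and no list was at 0. The part of these cell types in the *C730002L08Rik* difference was not tested.

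The level of an antisense gene relative to the gene opposite was compared in pairs, as the log2 ratio of (CPM + 0.5). In HT + Stroke vs HT + Sham, limma with adjustment over 398 pairs of an antisense and an opposite-strand gene found 3 with a changed ratio (0.754%), and all 3 were among the 142 pairs of the genes described here (2.11%). They were *C730002L08Rik* to *Aldh1a1*, *Lrp8os2* to *Lrp8* and *Dlx6os1* to *Dlx6*. At an unadjusted p under 0.05 there were 14 of the 142 (9.86%; 8 higher and 6 lower), compared with 7.04% of all pairs.

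The log2 ratio of *C730002L08Rik* to *Aldh1a1* was -1.76, -1.18 and -1.04 in HT + Sham (lowest, median and highest) and -2.52, -2.14 and -1.75 in HT + Stroke. The groups met at the edge, and the ratio fell by 0.84 on the log2 scale (SE 0.15; limma adjusted p = 0.00338). When each library was left out in turn the change was -0.93 to -0.76 and stayed past the threshold.

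*Lrp8os2* (chr4:107806033-107823022, minus strand) lies with all 9 of its annotated exons in an intron of *Lrp8*, a receptor for reelin and apolipoprotein E in neurons. It had 1.19, 1.81 and 3.43 CPM in HT + Sham and 2.96, 3.84 and 5.42 in HT + Stroke, so that the groups overlapped. Its own log2 fold change, 0.97 ± 0.25 (edgeR adjusted p = 0.0779), did not pass, nor did that of *Lrp8*, -0.24 ± 0.09 (edgeR adjusted p = 0.162), which had 41.6, 47.6 and 50.7 CPM and then 33.4, 38.2 and 46.0. The log2 ratio was -4.90, -4.27 and -3.70 in HT + Sham and -3.75, -3.18 and -2.54 in HT + Stroke, and it rose by 1.11 ± 0.22 (SE; limma adjusted p = 0.00663). *Lrp8os2* itself was past the threshold with DESeq2 (0.0103), with all 4 groups in one edgeR fit (0.0174), with edgeR on all genes of at least 1 count (0.0426) and without HT + Sham library 5. Its counts were 24 to 64 per library in HT + Sham and 58 to 95 in HT + Stroke.

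*Dlx6os1* (chr6:6820189-6871592, minus strand) spans *Dlx6*, a homeobox gene of forebrain GABAergic neurons, without sharing exon bases with it. It had 13.9, 16.2 and 23.1 CPM in HT + Sham and 11.8, 14.2 and 15.4 in HT + Stroke, with a log2 fold change of -0.27 ± 0.13 (edgeR adjusted p = 0.288), which turned to 0.08 ± 0.16 with the striatal and olfactory bulb scores as covariates. *Dlx6* had 11.4, 12.6 and 15.7 CPM and then 14.4, 15.7 and 17.2, with 0.30 ± 0.09 (edgeR adjusted p = 0.118). Neither gene passed alone. Their log2 ratio was 0.10, 0.37 and 0.54 in HT + Sham and -0.30, -0.16 and -0.13 in HT + Stroke, without overlap, and it fell by 0.54 on the log2 scale (SE 0.11; limma adjusted p = 0.00982). When each library was left out in turn, the change was 0.97 to 1.23 for *Lrp8os2* and -0.59 to -0.51 for *Dlx6os1*, past the threshold each time.

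With the striatal and olfactory bulb scores as covariates none of the 3 ratios passed. The changes were then -1.04 for *C730002L08Rik* (limma adjusted p = 0.0853), 0.44 for *Lrp8os2* (0.738) and -0.40 for *Dlx6os1* (0.659). The next ratios, *Gm13111* to *Prdm16* (-0.47 ± 0.15; limma adjusted p = 0.231) and *Gm9962* to *Gabra5*, the alpha 5 subunit of the GABA-A receptor (0.54 ± 0.20; 0.515), were not past the threshold. The plot of the 3 pairs by mouse shows the antisense gene above and the opposite gene below.

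**Figure D2:**
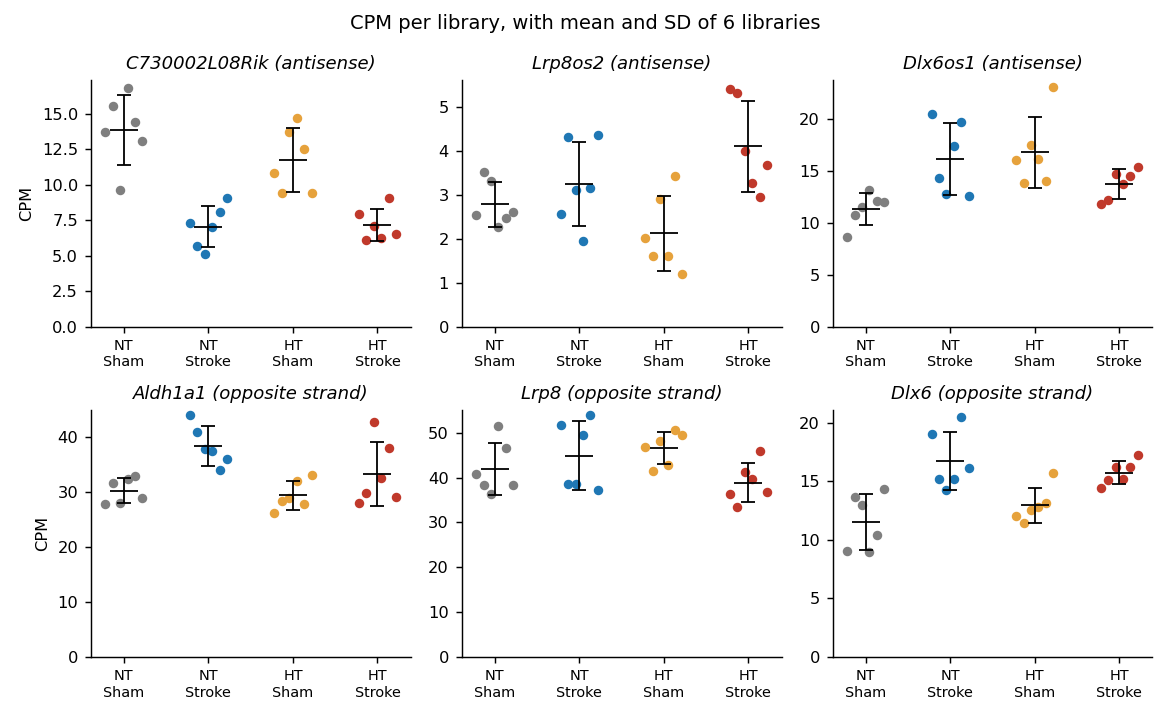
CPM (linear axis from 0) of *C730002L08Rik*, *Lrp8os2* and *Dlx6os1* (upper row) and of the opposite-strand genes *Aldh1a1*, *Lrp8* and *Dlx6* (lower row) in the 4 groups, 1 point per library (n = 6) with the mean and SD. *C730002L08Rik* sits at 6.07 to 9.04 in HT + Stroke and at 9.39 to 14.7 in HT + Sham, while *Aldh1a1* overlaps between these groups.

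The changes of the antisense gene and of the opposite gene were set side by side over the pairs of each arrangement. In HT + Stroke vs HT + Sham, Pearson's r of the log2 fold changes was 0.27 (Spearman's rho 0.31) over 142 pairs, with the same sign in 86. It was 0.60 (0.58) over 53 head-to-head pairs, with the same sign in 36, 0.25 (0.46) over 35 tail-to-tail pairs and -0.08 (-0.01) over 37 in which the antisense gene lay within the opposite gene. In NT + Stroke vs NT + Sham, r was 0.62 (0.51), 0.18 (0.28) and -0.06 (-0.08) over the same arrangements. Without *Gm40578* and *Tnfaip2*, the most extreme tail-to-tail pair, the 34 others had an r of 0.35 in HT and 0.38 in NT mice. The smaller sets had no steady sign, with -0.49 in HT and 0.43 in NT mice over 8 divergent pairs and 0.02 and 0.31 over 9 in which the opposite gene lay within the antisense gene. These are descriptions across genes, which share the libraries, their depth and the make-up of the sections, and the difference between arrangements was not tested.

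The head-to-head pair with the largest differences was *4930426D05Rik* and *Klhl14*. *4930426D05Rik* had 4.79, 5.95 and 6.47 CPM in HT + Sham and 1.69, 3.66 and 4.87 in HT + Stroke (log2 fold change -0.72 ± 0.23; edgeR adjusted p = 0.126). *Klhl14* had 4.48, 5.47 and 6.59 CPM and then 1.78, 2.84 and 4.20 (-0.90 ± 0.21; edgeR adjusted p = 0.0599). Neither passed by edgeR, and *4930426D05Rik* passed with DESeq2 and with all 4 groups in one fit. This pair was picked out after its values were seen. Without it r over the 52 other head-to-head pairs was 0.50 (rho 0.55).

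By the share of exon bases in an intron of the opposite gene, r in HT mice was 0.36 over 65 pairs with under 25%, 0.40 over 47 with 25% to under 75% and -0.10 over 29 with 75% or more. In NT mice it was 0.55, 0.27 and -0.03. Antisense genes that lie mostly in introns thus had the correlations nearest to 0 in both. Most of these are the same genes that lay within the span of the opposite gene, so this grouping is not a separate result. An example is *Gm3693* in an intron of *Slc8a3*, a sodium-calcium exchanger, with -0.38 and -0.00 in HT mice.

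**Figure D3:**
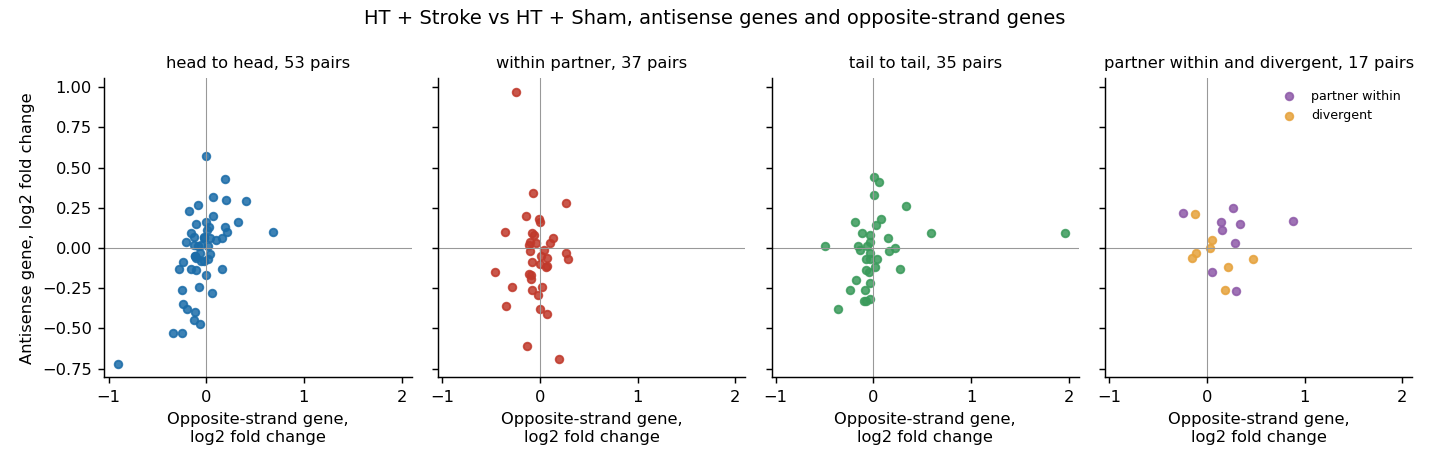
Log2 fold change (HT + Stroke vs HT + Sham, n = 6 each) of the antisense gene on the vertical axis against that of the gene on the opposite strand on the horizontal axis, 1 point per pair, in panels by arrangement. Of the 53 head-to-head pairs 36 lie at the lower left or upper right (same sign; r = 0.60), and the 37 pairs with the antisense gene inside the opposite gene show no slope (r = -0.08).

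In NT + Stroke vs NT + Sham, whose sham libraries chose the genes, 25 of the 150 were past edgeR's adjusted threshold (16.7%), 6 higher and 19 lower, compared with 25.9% of 16835 genes (14.4% higher and 11.5% lower). Without TMM scaling the split was 9 higher and 14 lower, and the median of all genes moved from -0.01 to 0.06. The median log2 fold change of the 150 was -0.10. With the striatal and olfactory bulb scores as covariates 2 of the 150 were past the threshold, *C730002L08Rik* (-1.04) and *Brip1os* (0.70), with 769 of all genes, while the median of the 150 was -0.09. Some of the other differences kept their size in that fit, with wider errors: -0.96 ± 0.32 for *AI115009*, -0.54 ± 0.22 for *Kcnmb4os2*, -0.68 ± 0.27 for *Gm3693* and 0.56 ± 0.24 for *Gm14964*. Others were smaller, from -0.75 to -0.37 for *AU022754*, from 0.51 to 0.11 for *Gm13031* and from 0.53 to 0.08 for *Dlx6os1*. Among the lower genes, *Gm35161* went from -0.55 to 0.06, *A230077H06Rik* from -0.39 to -0.02 and *Gm29100* from -0.87 to -0.35. Of 141 opposite-strand genes 40 were past it, 16 higher and 24 lower. In this comparison astrocyte markers (5 of 5) and microglia and macrophage markers (6 of 7) were higher and cortical markers (6 of 6) lower (413 to 458 CPM summed in NT + Sham, 277 to 321 in NT + Stroke). Meningeal markers (4 of 4; at most 27.5 CPM summed in NT + Sham and 94.6 to 348 in NT + Stroke) and 4 of 7 olfactory bulb markers were also higher, and of 8 neuronal markers 3 were lower and 1 higher. Apart from the region scores, the part of these cell types was not tested.

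Of the 25, 11 were head to head with the opposite gene. In 7 of these both genes were past the threshold and lower, and in 1 (*Gm45606* and *Slc43a2*) they ran in opposite directions. In 3 the opposite gene was not past it: *Pdgfa* (-0.10), *Fam214b* (-0.00) and *Twist2* (-0.68, with *Gm29100* at -0.87). Of the 7 pairs, 4 are described here. Their antisense genes were past the threshold in all 12 fits with 1 library left out. In the other pairs, *A830082K12Rik* was past it in 8 of 12 such fits, *Gm35161* in 7 and *A230077H06Rik* in 3. The genes of this comparison were picked out after their values were seen. *AI115009* had 2.44, 3.21 and 4.15 CPM in NT + Sham and 1.19, 1.40 and 1.70 in NT + Stroke, without overlap, as in 14.3% of all genes, and *Ak5*, a brain adenylate kinase, 108 to 138 and then 78.2 to 92.3. *Kcnmb4os2* had 5.60, 6.87 and 7.97 and then 3.86, 4.54 and 5.44, and *Kcnmb4*, a neuronal subunit of BK potassium channels, 21.9 to 27.7 and then 13.7 to 18.3. *D930019O06Rik* had 3.70, 4.33 and 5.37 and then 1.15, 2.42 and 2.98, and *Creg2*, opposite to it, 92.8 to 114 and then 61.0 to 74.9. *AU022754* had 2.38, 3.19 and 3.36 and then 1.34, 1.65 and 2.47, and *Wnt7b*, a Wnt ligand, 77.6 to 88.2 and then 47.0 to 74.6. In all 4 pairs both genes were lower in NT + Stroke, and of these 8 genes *AU022754* alone overlapped between the 2 groups.

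In HT + Sham and HT + Stroke the same antisense genes overlapped. *AI115009* had 1.62, 2.77 and 4.06 CPM and then 1.38, 1.88 and 2.80 (log2 fold change -0.53 ± 0.23; edgeR adjusted p = 0.249), and *Ak5* 88.6 to 127 and 76.2 to 104. *Kcnmb4os2* had 5.30 to 7.09 and 3.73 to 6.87, *D930019O06Rik* 3.66 to 4.35 and 2.62 to 4.07, and *AU022754* 1.60 to 3.61 and 0.956 to 2.27. The plot of these pairs by mouse shows the 4 groups in each.

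**Figure D4:**
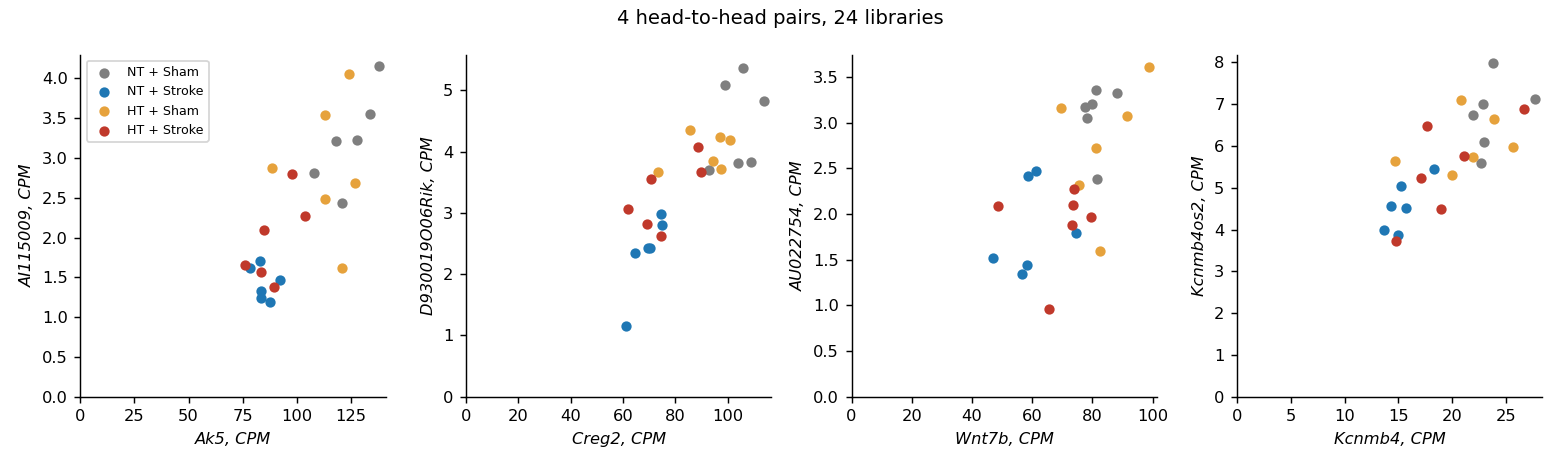
CPM of the antisense gene (vertical axis, linear from 0) against CPM of the opposite gene (horizontal axis, linear from 0) in 4 head-to-head pairs, 1 point per library, coloured by group (n = 6 each). The NT + Stroke libraries lie at the lower left, for *AI115009* at 1.19 to 1.70 against 2.44 to 4.15 in NT + Sham, and the HT groups overlap.

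Pairs that differed in opposite directions in NT mice numbered 3 of the 16 in which both genes were past the threshold. They were *C730002L08Rik* and *Aldh1a1* (-0.95 and 0.36), *Gm3693* and *Slc8a3* (-0.55 and 0.31) and the head-to-head pair *Gm45606* and *Slc43a2*, an amino acid transporter (-0.35 and 0.22). *Gm3693* had 3.52, 4.01 and 4.33 CPM in NT + Sham and 2.26, 2.52 and 3.22 in NT + Stroke. Among the 6 higher genes were *Gm14964* opposite *Nrxn2*, a presynaptic neurexin (5.60 ± 0.843 and 8.03 ± 1.38 CPM), *Brip1os*, which contains *Ints2* (10.6 ± 1.36 and 14.3 ± 1.52), *Gm13031* opposite *Padi2*, a peptidylarginine deiminase of oligodendrocytes (2.07 ± 0.460 and 2.90 ± 0.383), and *E430024P14Rik*, which contains *Tagap* (2.35 ± 0.374 and 3.15 ± 0.417). With 1 library left out, *Gm14964* and *Brip1os* were past edgeR's threshold in all 12 fits, *E430024P14Rik* in 6 and *Gm13031* in 3. The ratio to the opposite gene was past limma's threshold in 8 of 142 pairs (5.63%), compared with 4.46% of 404 pairs. The largest log2 ratio change was that of *Gm40578* to *Tnfaip2*, a gene induced by tumour necrosis factor, at -2.19 ± 0.22. It came from *Tnfaip2* (1.35 to 3.57 CPM in NT + Sham, 6.39 to 17.1 in NT + Stroke), while *Gm40578* had 3.54 ± 0.442 and 3.16 ± 0.675. In HT mice this ratio changed by -1.40 ± 0.50 (limma adjusted p = 0.530), with *Tnfaip2* at 2.57 to 5.73 and 3.55 to 28.7 CPM.

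Of the 25 genes, 19 had the same sign in HT mice (15 of the 19 lower and 4 of the 6 higher), and 6 had an unadjusted p under 0.05 there. The absolute log2 fold change was larger in NT than in HT mice in 24 of them, which the choice of the 25 by their NT values favours. The median of the 19 was -0.55 in NT and -0.11 in HT mice, and that of the 6 was 0.48 and 0.13. *C730002L08Rik* was the gene past the threshold in both.

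**Figure D5:**
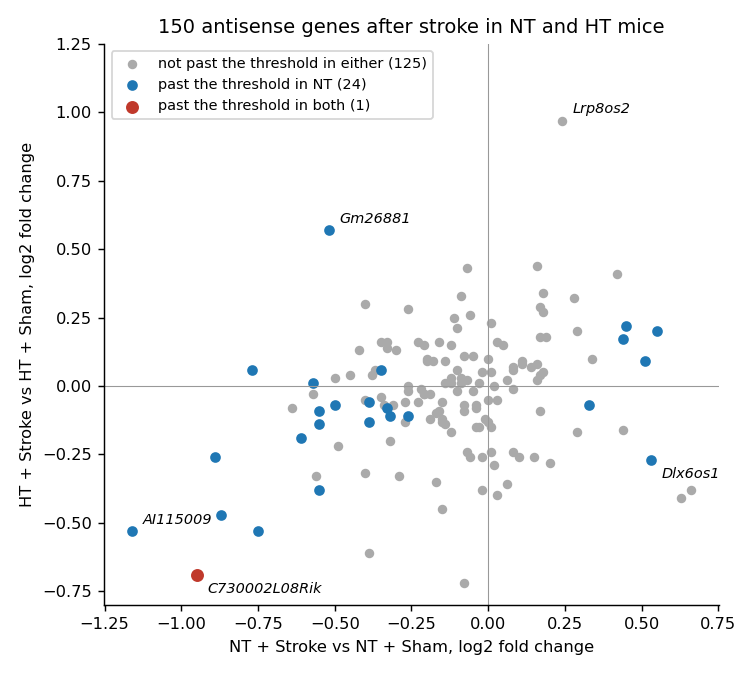
Log2 fold change of the 150 antisense genes in NT + Stroke vs NT + Sham (horizontal axis) and in HT + Stroke vs HT + Sham (vertical axis), 1 point per gene, n = 6 per group. The 24 blue points were past the threshold in NT mice and the red point, *C730002L08Rik* (-0.95 and -0.69), in both.

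The question whether mice differed with hypertension after stroke was addressed by HT + Stroke vs NT + Stroke. In HT + Stroke vs NT + Stroke, 0 of 17008 genes (0%) and so 0 of the 150 passed with edgeR, and 0 with DESeq2. At an unadjusted p under 0.05 there were 8 of the 150 (5.33%), compared with 7.23% of all genes. The smallest p among them was that of *Gm26881*, head to head with *Fam214b*. It had 1.86, 2.13 and 2.58 CPM in NT + Stroke and 2.41, 3.25 and 4.25 in HT + Stroke, with a log2 fold change of 0.58 ± 0.16 (edgeR adjusted p = 0.654), and the groups overlapped.

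The interaction of hypertension and stroke contains the NT + Sham libraries that chose the genes and is given as a description. *Gm26881* had the largest value among them. It had 2.48, 2.82 and 5.35 CPM in NT + Sham, where 1 library stood apart, and 1.74, 2.28 and 2.61 in HT + Sham, with a log2 fold change after stroke of -0.52 in NT mice (-0.32 without that library, and past the threshold in 3 of 12 fits with 1 library left out) and of 0.57 ± 0.18 in HT mice (edgeR adjusted p = 0.119). The difference was 1.09 ± 0.25, and 0.90 without that library. Its neighbour *Fam214b* had -0.00 in both. *Dlx6os1* had 8.63 to 13.2 CPM in NT + Sham and 12.6, 15.8 and 20.5 in NT + Stroke, with an interaction of -0.81 ± 0.19. With the region scores as covariates these were 0.87 and -0.33. For the interaction 0 of 17608 genes passed with edgeR, with 19 of the 150 (12.7%) and 10.4% of all genes at an unadjusted p under 0.05. DESeq2 called 22 genes, with both of these among them.

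In HT + Sham vs NT + Sham, 0 of 16581 genes passed with edgeR or DESeq2, and 11 of the 150 (7.33%) had an unadjusted p under 0.05, compared with 8.03% of all genes. *Dlx6os1* had the smallest p among them, with a log2 fold change of 0.57 ± 0.13, and was the gene of the 150 whose sham groups did not overlap (0.386% of all genes). The olfactory bulb score was 4.26 ± 0.42 in NT + Sham and 5.29 ± 0.73 in HT + Sham (mean ± SD), and with both region scores as covariates the value of *Dlx6os1* was 0.21 ± 0.16.

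Antisense and sense RNA can pair into double-stranded RNA, which is edited by Adar enzymes, sensed by the innate immune receptors and processed or degraded by others. Of 42 such genes 41 were tested in HT + Stroke vs HT + Sham and 0 passed with edgeR (median log2 fold change -0.04 over the list, 0.00 over all genes). The 11 sensing genes had a median of 0.54, with *Oas1a*, which makes the messenger that activates RNase L, at 1.43 ± 0.39 (edgeR adjusted p = 0.0907), *Oasl2* at 1.16 ± 0.30 (0.0794) and *Zbp1*, a sensor of Z-form nucleic acid, at 1.52 ± 0.53 (0.162). In NT + Stroke vs NT + Sham 12 of the 41 were higher (29.3%) and 2 lower (4.88%), compared with 14.4% and 11.5% of all genes, and 10 of the 11 sensing genes were higher, among them *Ifih1* (0.54 ± 0.17; edgeR adjusted p = 0.0212), *Ddx58* (0.84 ± 0.13; 1.35e-04) and *Eif2ak2* (0.77 ± 0.17; 0.00261). *Adar*, *Adarb1* and *Adarb2*, listed under editing, had 0.02, 0.01 and 0.23 in NT mice and did not pass there. In HT mice they had -0.06, -0.25 and -0.34 (edgeR adjusted p = 0.916, 0.194 and 0.274). Many sensing genes are also induced by interferon in microglia, whose markers were higher in the same comparison, and the part of this in their difference was not tested.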

How the data were processed

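The authors deposited raw counts (whole numbers per gene) and FPKM in 4 tables of 12 libraries each. Submitters' processing notes name featureCounts 1.5.0-p3 and DESeq2 1.20.0, and the paper names an Ensembl mouse genome. The aligner, strand setting and build are not given in the sources used here. The tables also hold the authors' fold changes, p-values and 48 columns of normalized counts, which were not used. Tables were joined by gene identifier (33981 genes), and 0 of 48 comparisons of shared libraries differed.

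Genes were taken by the antisense biotype and the mean NT + Sham count. Positions matched GENCODE mouse release 21 (GRCm38) for 147 of the 150, and *C730002L08Rik* was among those that did not match. The opposite-strand gene was the overlapping gene with the largest overlap, protein-coding first, or else the nearest protein-coding gene with a start within 5000 bases.

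Counts were tested in R 4.3.3 with edgeR 4.0.16 (filterByExpr, minimum count 10 and minimum total count 15; TMM; quasi-likelihood F test, two-sided, on the libraries compared, or on all 24 for the interaction), with Benjamini-Hochberg adjustment over all genes and a threshold of 0.05. The SE of a log2 fold change is its size divided by the square root of F. Ratios to the opposite gene were log2 differences of (CPM + 0.5), tested with limma 3.58.1 on the deposited counts scaled by TMM. Only the edgeR fit and the ratio fit of HT + Stroke vs HT + Sham were tried on simulated counts. There were 6 libraries per group, with a median total of 18497216 counts.

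Genes named are the 10 with the highest mean count, those past the threshold in HT + Stroke vs HT + Sham, members of listed loci, the 5 smallest p for a ratio, the ranks around 150 and the smallest p of comparisons with no call, with any others said to be picked out after their values were seen. The genes, lists and tests were chosen with earlier results of these data known. Alternatives were DESeq2 1.42.0, other scalings and filters, all 4 groups in one fit, other pseudocounts (0.1 and 2 CPM), other rankings and pairings, region scores as covariates and each library left out in turn. No batch or date is given, so batches could not be examined.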

Additional observations from a re-analysis of the deposited data

Results flagged for a closer look

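For 50 of the genes the highest and the lowest library of each group were compared with the other 5, and 13 of 200 groups held a library that stood apart by Dixon's criterion, of which chance gives about 1 in 20. In NT + Sham the highest library was at 5.31 CPM for *Emx2os* (next 4.01), at 6.62 for *Atcayos* (next 5.17), at 3.08 for *Zmiz1os1* (next 2.20) and at 5.35 for *Gm26881* (next 3.03), and the lowest was at 2.38 for *AU022754* (next 3.05). In NT + Stroke the highest was at 2.62 for *Zmiz1os1* (next 1.97), and the lowest was at 6.49 for *Tmem147os* (next 9.09), at 1.15 for *D930019O06Rik* (next 2.35) and at 2.14 for *Gm13031* (next 2.93). In HT + Stroke the highest was at 26.1 for *Grin1os* (next 21.2) and at 3.09 for *A930012L18Rik* (next 1.97), and the lowest was at 2.91 for *Zfp335os* (next 4.61) and at 0.956 for *AU022754* (next 1.88). No HT + Sham group of these genes held such a library.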

How the results depend on the processing

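The numbers of antisense genes past the threshold depended on the test and on single libraries. In HT + Stroke vs HT + Sham the count of 1 became 14 without adjustment, 3 with DESeq2, 3 with all 4 groups in one fit, 2 with all genes of at least 1 count and 0 with region scores as covariates, and it was 0 to 2 with each library left out. Over all genes, 108 of 16741 became 907 of 32562 with DESeq2 and 1125 of 17608 with all 4 groups in one fit. With all genes of at least 1 count 179 of 32562 passed, and 0 with region scores. In NT + Stroke vs NT + Sham the 25 became 45 without adjustment and 2 with region scores, and 17 to 27 with libraries left out. Without adjustment the counts of 0 became 8 in HT + Stroke vs NT + Stroke, 11 in HT + Sham vs NT + Sham and 19 for the interaction, which was 2 with DESeq2. The 3 changed ratios became 14 without adjustment and 0 with region scores, and 3 to 4 with libraries left out. The 0 opposite-strand genes became 27 without adjustment, 9 with DESeq2, 10 with all 4 groups and 2 with all genes, and 0 to 6 with libraries left out (6 without HT + Stroke library 1). Other scalings, filters, pseudocounts, pairings and rankings kept these counts of antisense genes, ratios and opposite-strand genes within 1.5 times. Some log2 fold changes that had not passed changed sign in HT mice. With region scores *Dlx6os1* went from -0.27 to 0.08, and the values were 0.08 for *E130307A14Rik*, 0.10 for *Zfp652os*, 0.04 for *Phf2os1*, -0.02 for *Pcsk2os1*, 0.07 for *Tomm6os* and -0.17 for *Gm9962*, which was also -0.00 with all 4 groups and with library size only. With libraries left out they ran from -0.09 to 0.04 for *E130307A14Rik*, -0.12 to 0.04 for *Grin1os*, -0.14 to 0.01 for *Gm37459*, -0.14 to 0.06 for *Zfp652os*, -0.01 to 0.12 for *Emx2os*, -0.03 to 0.26 for *Zeb2os*, -0.20 to 0.10 for *Gm13111* and -0.12 to 0.12 for *Gm9962*. The causes were not tested. The labels give no replicate numbers that pair mice across groups. Reads of both strands cannot be told apart where exons are shared, and the median of the mean counts was 62.8 to 72.4 per group.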
